A study of Mus musculus with 6 samples.

Results

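The mast cell genes Mcpt4, Cma1, Tpsb2, Cpa3, Kit, Hdc, Fcer1a and Ms4a2 were followed in mouse skin through the probe sets whose platform annotation names only 1 of them. The rule found 11 probe sets for the 8 genes, of 22690 probe sets in all, with 2 probe sets each for Tpsb2, Kit and Hdc. RNA came from skin of C57BL/6 mice that carried a subcutaneous pump for 7 days, hybridised to 6 single-colour Affymetrix arrays. Skin at the pump outlet was taken under IL-13 (1 array), TSLP (1 array) and TGF-beta (2 arrays, from mouse 1 and mouse 2). The controls were PBS distal, abdominal skin far from the outlet of a PBS pump (1 array), and PBS local, skin at the outlet of a PBS pump (1 array). All mice carried a pump, and the labels used here give no dose, age or sex and do not say whether the 2 PBS pieces came from the same mouse.

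Mast cells are tissue-resident immune cells that lie around vessels, nerves and hair follicles of the dermis. They depend on the receptor KIT, bind IgE through a high-affinity receptor, and store histamine with chymases, tryptases and carboxypeptidase A on a proteoglycan matrix in their granules. In mouse skin most belong to the connective tissue type, whose granules hold Mcpt4, Cma1 (mast cell protease 5), Tpsb2 (mast cell protease 6) and Cpa3. In these bulk arrays, fewer mast cells and less RNA per mast cell cannot be told apart.

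All 8 markers chosen for the labelled tissue (Krt5, Krt14, Krt1, Krt10, Lor, Flg, Col1a1 and Dcn) passed the filter on dim genes, and their summed signal was 53640 to 74332 over the 6 arrays. That filter was a signal of 165, the median of all values. Of the 8 mast cell genes, 6 reached it on at least 1 array. Mcpt4, Cma1 and Cpa3 reached it on all 6 arrays, while Kit, Hdc and Fcer1a were below it in PBS distal skin and so entered comparisons through the outlet arrays, where they were higher. Tpsb2 and Ms4a2 were below it on every array.

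PBS distal skin held the lowest signal of the 6 arrays for Mcpt4, Cma1, Cpa3, Hdc, Fcer1a and Kit. Set against the 5 outlet arrays together, Fcer1a, Hdc and Cma1 were lower in distal skin and passed limma's threshold, while Mcpt4, Cpa3 and Kit had negative differences that did not. Fcer1a and Hdc were below the filter in distal skin and were tested because the outlet arrays were higher. With no filter on dim genes the limma adjusted p was 0.0328 for Fcer1a, 0.0709 for Hdc and 0.0731 for Cma1, so that Fcer1a alone kept its call. Differences are on the scale log2(signal + 27.4), which understates the change of dim genes.

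Fcer1a encodes the IgE-binding alpha chain of the high-affinity IgE receptor. Its signal (probe set 1421775_at) was 38.8 in PBS distal skin, against 208 under IL-13, 201 under TSLP, 136 and 190 in the TGF-beta mice and 182 in PBS local skin. The distal array stood far below all 5 outlet arrays, which lay close together. The difference, distal minus the mean of the outlet arrays, was -1.66 ± 0.26 (SE), with a limma adjusted p of 0.0234.

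Hdc encodes histidine decarboxylase, the enzyme that makes histamine. Its brighter probe set (1454713_s_at) had a signal of 67.2 in PBS distal skin, against 614 under IL-13, 447 under TSLP, 246 and 267 in the TGF-beta mice and 324 in PBS local skin. Outlet arrays did not overlap with the distal array and were themselves widely spread. The difference was -2.03 ± 0.42 (SE), with a limma adjusted p of 0.0453. The dimmer probe set (1451796_s_at) had 11.6 in distal skin, against 202, 195, 101, 87.1 and 140 on the IL-13, TSLP, TGF-beta mouse 1, TGF-beta mouse 2 and PBS local arrays. Both probe sets put the groups in the same order, IL-13 highest, then TSLP, PBS local, TGF-beta and PBS distal.

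Cma1 encodes a chymase of connective tissue mast cells. Its signal (1449456_a_at) was 408 in PBS distal skin, against 1453 under IL-13, 831 under TSLP, 855 and 1128 in the TGF-beta mice and 1212 in PBS local skin. The lowest outlet array was still above the distal array by a wide margin. The difference was -1.34 ± 0.29 (SE), with a limma adjusted p of 0.0478.

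The proteases Mcpt4 and Cpa3 differed less. Mcpt4, a second chymase, had a signal (1425967_a_at) of 398 in PBS distal skin, against 714 under IL-13, 609 under TSLP, 549 and 650 in the TGF-beta mice and 902 in PBS local skin. Its difference was -0.72 ± 0.23 (SE), with a limma adjusted p of 0.135. Cpa3, the carboxypeptidase of mast cell granules, had a signal (1448730_at) of 876 in distal skin, against 1733, 1224, 1184, 1352 and 1642 on the IL-13, TSLP, TGF-beta mouse 1, TGF-beta mouse 2 and PBS local arrays. Its difference was -0.67 ± 0.22 (SE), with a limma adjusted p of 0.138. For both genes the distal array lay below all the outlet arrays, which did not by itself pass the test.

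Kit encodes the receptor for stem cell factor, on which mast cells and melanocytes depend. Its brighter probe set (1452514_a_at) had a signal of 135 in PBS distal skin, against 186 under IL-13, 239 under TSLP, 257 and 338 in the TGF-beta mice and 216 in PBS local skin. The difference was -0.73 ± 0.27 (SE), with a limma adjusted p of 0.184. The other Kit probe set (1415900_a_at) stayed between 7.23 and 20.6 on all arrays, below the filter, and shows no such order.

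**Figure D1:**
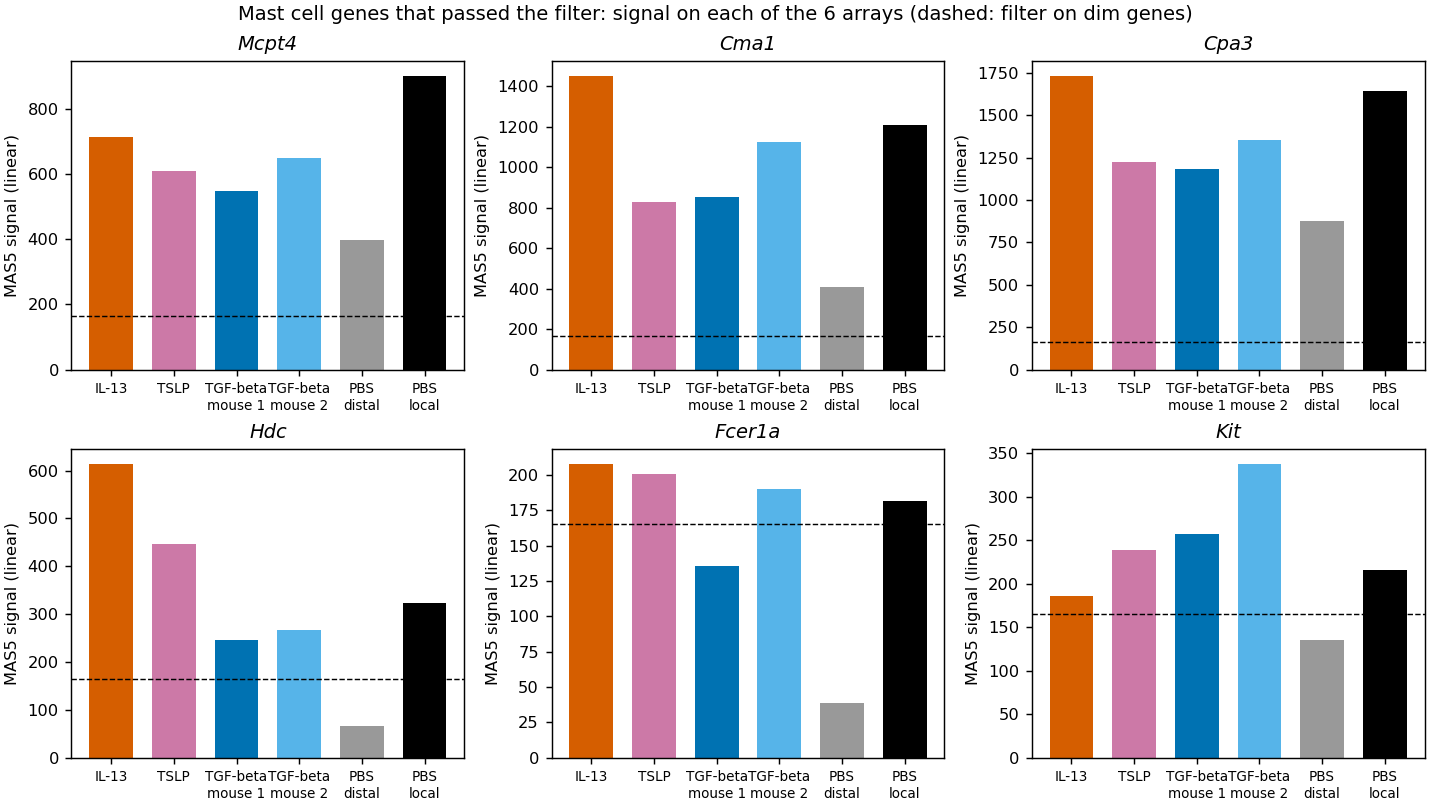
MAS5 signal (linear, from 0) of the 6 mast cell genes that passed the filter, 1 bar per array and 1 panel per gene, with the dashed line at the filter of 165. The PBS distal bar is the lowest in every panel, at 38.8 for Fcer1a, where the outlet arrays sit between 136 and 208.

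Between the PBS arrays alone, distal minus local, the difference was -1.89 for Hdc (-2.10 on its dimmer probe set), -1.66 for Fcer1a, -1.51 for Cma1, -1.13 for Mcpt4, -0.89 for Cpa3 and -0.58 for Kit. Each of the 2 groups has 1 array, so this carries no test. Of the 6 genes 4 were past 2-fold, against 3.51% of 7617 genes that were at least 2-fold lower. Of the 6, 6 were below every outlet array (24.9% of 7945 genes were) and 3 were at least 2-fold below the outlet mean (3.90%). Kit, Hdc and Fcer1a reached the filter only on outlet arrays and had to differ, so these counts over the passing genes support nothing by themselves.

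Counted over all 8 genes with no filter, 4 (Mcpt4, Cma1, Hdc and Fcer1a) had distal signals past 2-fold below PBS local, against 2.74% of the 12393 genes on the arrays. Over the same 8 genes 6 had the distal array below every outlet array, against 22.9% of all genes, and 3 were at least 2-fold lower than the outlet mean, against 2.76%. Of the 3 genes that reached the filter on every array, 2 (Cma1 and Mcpt4) were at least 2-fold lower in the PBS pair, against 1.95%. Against the outlet mean 1 of the 3 (Cma1) was at least 2-fold lower, against 2.06% of 6684 genes, and 3 were below every outlet array, against 23.1%. The median difference from the outlet mean was -0.73 over the 8 genes and 0.01 over all genes. These counts are a description, since the genes share their source cell and were picked as a group.

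Limma called 213 genes lower (2.68%) and 99 higher (1.25%) in distal skin among the 7945 tested, with 4 residual degrees of freedom from outlet arrays of 4 treatments and the lone distal array assumed to vary like them. The 3 calls lie near the threshold of 0.05. Without the IL-13 array the adjusted p was 0.0647 for Fcer1a, 0.0607 for Hdc and 0.0732 for Cma1, and only 56 genes were called. Without the TSLP array Hdc had 0.0655. Without PBS local it was 0.0624 for Hdc and 0.0702 for Cma1, and without TGF-beta mouse 1 it was 0.0573 and 0.0636, with 107 genes called. Without TGF-beta mouse 2 Cma1 had 0.0514. Each of the 3 genes kept a difference of at least 2-fold in these fits. Site on the body and distance from the pump differ together here and cannot be told apart.

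**Figure D2:**
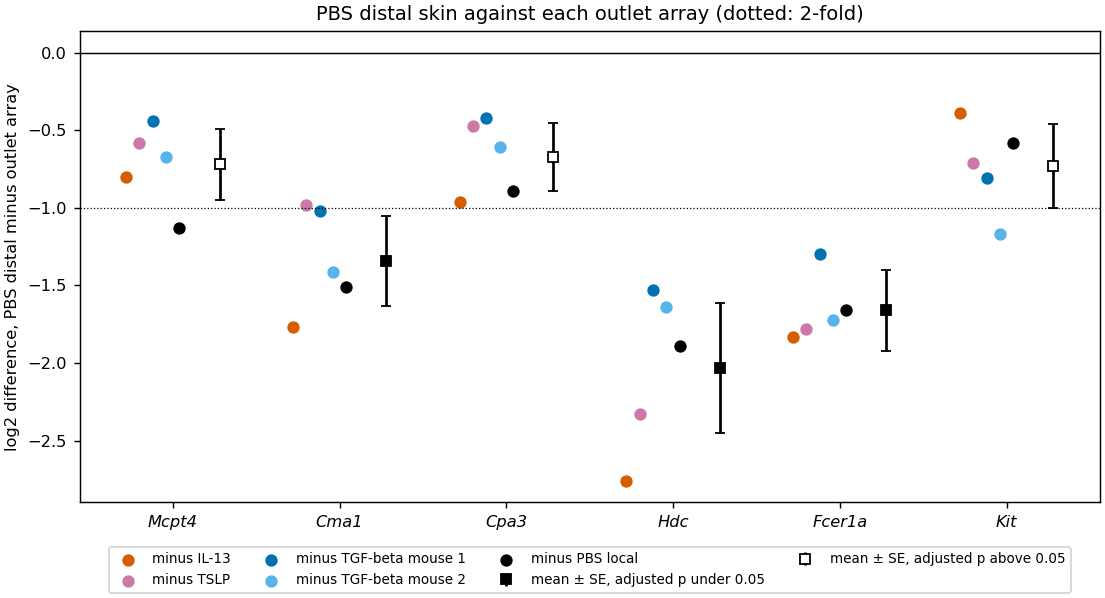
Difference of the PBS distal array from each outlet array (coloured points) and from their mean (squares, ± SE from limma) for 6 genes, in log2 units, with the dotted line at 2-fold. All points lie below 0; filled squares mark Hdc at -2.03, Fcer1a at -1.66 and Cma1 at -1.34, which passed limma's threshold.

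The dim genes could not add to this comparison. Tpsb2, a tryptase gene, had signals (1422180_a_at) of 47.9 in PBS distal skin, against 46.8 under IL-13, 34 under TSLP, 29.4 and 39 in the TGF-beta mice and 60 in PBS local skin. Its other probe set (1451802_at) ran from 6.25 to 24.2. Ms4a2, the beta chain of the high-affinity IgE receptor, had signals (1421475_at) of 2.11 in distal skin and 1.43 to 13.7 on the outlet arrays. Neither gene was lowest in distal skin, and at such signals an order of arrays is not readable.

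To set the genes beside their regulatory sequence, the 250 bases before the annotated start were taken from RefSeq (GRCm38.p6), where 7 of the 8 genes had an entry. GATA factors are known regulators of mast cell genes, and 4 words were searched on both strands, namely AGATAA, then AGATAG, the word TGATAA and the word TGATAG. At least 1 of them stood in the windows of 6 of the 7 genes (Mcpt4, Cma1, Cpa3, Hdc, Fcer1a and Ms4a2, with Kit the exception), against 26.5% of 32536 distinct windows of this length. The word CATGTG, or the word CACGTG, both of which the mast cell and melanocyte factor MITF can bind, stood in 1 of the 7 windows (Fcer1a, apart from the GATA word), against 17.7% of all. A match describes the letters and not a bound site. The windows of the 3 genes that passed the test and of Cpa3 are shown 5′ to 3′ on the gene's strand, with the GATA words or their reverse complements in capitals:
Fcer1a: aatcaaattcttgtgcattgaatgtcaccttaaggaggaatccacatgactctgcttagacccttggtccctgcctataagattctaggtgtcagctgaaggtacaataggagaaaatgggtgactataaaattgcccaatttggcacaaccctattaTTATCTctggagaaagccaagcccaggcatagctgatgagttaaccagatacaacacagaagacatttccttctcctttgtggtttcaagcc
Hdc: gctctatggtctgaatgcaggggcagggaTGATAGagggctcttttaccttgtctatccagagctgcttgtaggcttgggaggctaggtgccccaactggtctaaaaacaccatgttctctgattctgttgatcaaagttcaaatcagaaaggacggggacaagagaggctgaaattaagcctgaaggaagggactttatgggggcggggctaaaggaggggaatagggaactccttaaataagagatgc
Cma1: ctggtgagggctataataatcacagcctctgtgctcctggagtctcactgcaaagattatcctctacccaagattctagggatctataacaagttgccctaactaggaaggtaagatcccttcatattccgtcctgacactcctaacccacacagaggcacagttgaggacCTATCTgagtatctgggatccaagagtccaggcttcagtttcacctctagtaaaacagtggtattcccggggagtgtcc
Cpa3: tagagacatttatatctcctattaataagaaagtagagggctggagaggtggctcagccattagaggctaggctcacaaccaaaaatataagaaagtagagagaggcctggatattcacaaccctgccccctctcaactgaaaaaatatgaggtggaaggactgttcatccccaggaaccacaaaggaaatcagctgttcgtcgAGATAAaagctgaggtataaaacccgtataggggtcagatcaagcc
The first base of the word lies at position -92 in Fcer1a, -221 in Hdc, -79 in Cma1 and -46 in Cpa3, counting the start site as 0. The windows lie at chr1:173227230-173227479, chr2:126618679-126618928, chr14:55944676-55944925 and chr3:20242182-20242431, all on the minus strand of GRCm38.p6. No measurement of binding was made in these samples.

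On the cytokine arrays, the mast cell genes differed from PBS local skin by less than 2-fold. The 6 genes that passed the filter held 0 differences past 2-fold under IL-13, TSLP or TGF-beta. IL-13, TSLP and PBS local had 1 array each, so differences between them have no replicate check, and the comparisons share the PBS local array.

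Under TGF-beta, Mcpt4, Cma1, Cpa3 and Hdc were below PBS local in both mice. Mcpt4 was at -0.69 in mouse 1 and -0.46 in mouse 2, with a mean of -0.57 ± 0.18 (SE) and a limma adjusted p of 0.864. Cpa3 was at -0.46 and -0.27, Cma1 at -0.49 and -0.10, and Hdc at -0.36 and -0.25. Of the 6 genes 4 were lower in both mice, against 42.4% of the 7741 genes tested, a share that does not set them far from the rest. Kit was higher in both mice, at 0.23 and 0.59, as were 27.9% of genes. Past 2-fold in both mice, 0.155% of genes were lower and 0.181% higher. Fcer1a was at -0.36 in mouse 1 and 0.06 in mouse 2. Limma called 0 genes of 7741, of any kind, with 355 at an unadjusted p under 0.05. Its spread rests on the 2 TGF-beta mice, with 1 residual degree of freedom.

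Under IL-13 the genes did not share a direction. Hdc had the largest difference, at 0.87 (0.45 on its dimmer probe set). Cma1, Fcer1a and Cpa3 were at 0.26, 0.17 and 0.08, while Mcpt4 was at -0.33 and Kit at -0.19. Of the 6 genes 4 were higher by any size, against 39.8% of 7562 genes, and 2 lower, against 60.2%. Past 2-fold, 1.12% of genes were higher and 0.410% lower. For Cma1, Cpa3, Fcer1a and Kit the difference was smaller than the distance between the TGF-beta mice for the same gene (0.39, 0.19, 0.42 and 0.36), the only spread between mice that these arrays offer.

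Under TSLP the 3 granule proteases were below PBS local, Mcpt4 at -0.55, Cma1 at -0.53 and Cpa3 at -0.42. Hdc was at 0.43, Kit at 0.13 and Fcer1a at 0.12. The 3 protease differences and that of Hdc were larger than the distance between the TGF-beta mice for the same gene (0.23, 0.39, 0.19 and 0.11). That distance comes from a single pair of mice, and all these differences share the PBS local array. A difference above it is therefore not a test. Of the 6 genes 3 were lower by any size, against 51.3% of 7614 genes, and 3 higher, against 48.7%. Past 2-fold, 0.998% of genes were higher and 0.447% lower.

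**Figure D3:**
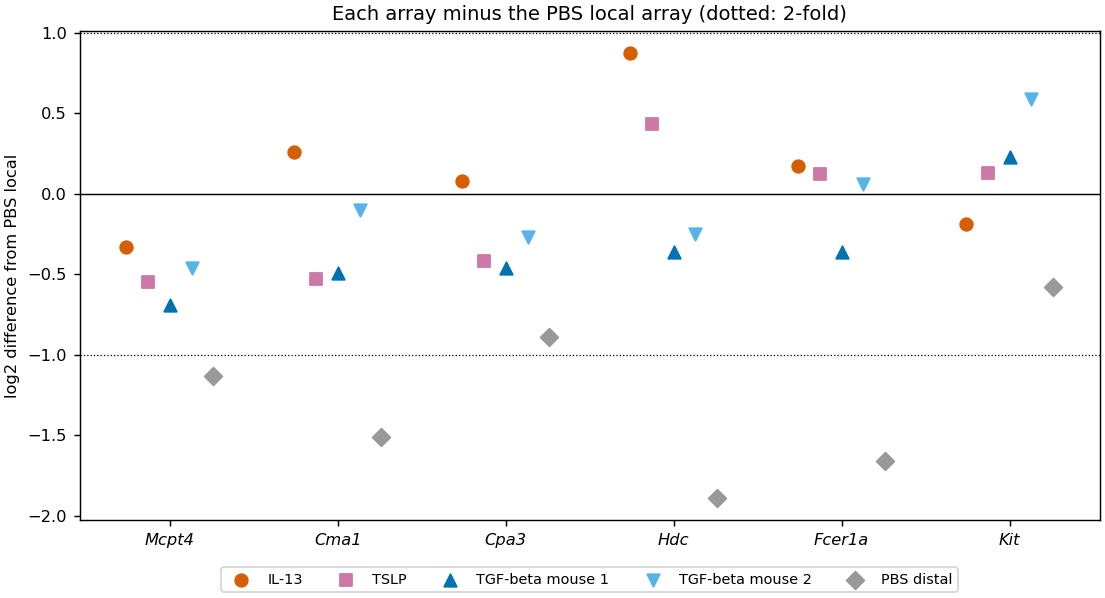
Difference of each array from the PBS local array for 6 mast cell genes, in log2 units, with 1 symbol per array and dotted lines at 2-fold. Cytokine arrays lie between -0.69 and 0.87, and the PBS distal array runs from -0.58 for Kit to -1.89 for Hdc.

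Set against each other, the cytokine arrays parted most on Hdc. On its brighter probe set, Hdc was at least 2-fold lower in both TGF-beta mice than under IL-13, as were 0.430% of 7674 genes. The mean difference was -1.18 ± 0.19 (SE), with a limma adjusted p of 1. On the dimmer probe set, IL-13 was at 0.45 and the TGF-beta mice at -0.38 and -0.55 against PBS local. There mouse 1 fell short of 2-fold below IL-13. Of the 6 genes 5 were lower in both TGF-beta mice than under IL-13, against 25.9% of genes. Against TSLP the difference was -0.74 ± 0.19 (SE), with a limma adjusted p of 0.676. The other 5 genes had differences between -0.55 (Cma1) and 0.60 (Kit) against IL-13 and between -0.28 (Fcer1a) and 0.28 (Kit) against TSLP, where 0 of the 6 were past 2-fold in both mice (0.515% of 7763 genes were lower and 0.167% higher). Limma called 0 genes in either comparison, with 179 and 568 at an unadjusted p under 0.05.

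Set against PBS distal skin in place of PBS local, all cytokine arrays were higher for the 6 genes. These comparisons share the distal array with those above. Hdc was at 2.76 under IL-13, 2.33 under TSLP and 1.53 and 1.64 in the TGF-beta mice, and Cma1 at 1.77, 0.98, 1.02 and 1.41 on the same arrays. Fcer1a was at 1.83, 1.78, 1.30 and 1.72. Past 2-fold were 3 of the 6 genes under IL-13 (Hdc, Fcer1a and Cma1; 4.64% of 7583 genes), 2 under TSLP (Hdc and Fcer1a; 5.04% of 7645) and 3 in both TGF-beta mice (Hdc, Fcer1a and Cma1; 2.57% of 7774). For TGF-beta limma called 4 genes higher (0.0515%), with 0 of the mast cell genes among them. Hdc, Fcer1a and Kit were below the filter in distal skin and were tested because the cytokine arrays were higher. Of the mast cell genes past 2-fold, only Cma1 reached the filter in distal skin, so these counts support nothing by themselves.

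The order of the 5 groups differed by gene. For Cma1 it ran from IL-13 through PBS local, TGF-beta and TSLP to PBS distal, and only the last step, at 0.98, was larger than the distance between the TGF-beta mice. For Fcer1a only the step down to PBS distal, at 1.51, was larger than that distance, and for Kit only the step at 0.39. Mcpt4 was highest in PBS local skin, a step of 0.33 above IL-13, and its last step, from TGF-beta to PBS distal, was 0.55. Its steps from IL-13 to TSLP, at 0.22, and from TSLP to TGF-beta, at 0.03, were not larger than the mouse distance of 0.23. For Cpa3 the steps from PBS local to TGF-beta, at 0.37, and from TSLP to PBS distal, at 0.47, exceeded it. For Hdc all 4 steps on the brighter probe set exceeded its small mouse distance of 0.11. On the dimmer probe set IL-13 and TSLP, at 0.45 and 0.41 from PBS local, were closer together than the TGF-beta mice, at -0.38 and -0.55. The mouse distance comes from a single pair of mice, so a step above it is not a test.

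Markers of other cell types moved beside some of these values. Of 8 neutrophil markers (granulocytes can also make histamine), 6 passed the filter, and limma called S100a8, S100a9, Lcn2 and Csf3r lower in distal skin. The summed signal of all 8 was 1018 in PBS distal skin, against 5563 to 12059 on the outlet arrays, highest under IL-13, where Hdc was highest too. By gene, S100a8, S100a9, Camp and Cxcr2 were highest under IL-13, Lcn2 and Csf3r under TSLP, and Ngp and Ltf in PBS local skin. The sums of the TGF-beta arrays, at 7984 and 8023, lay above PBS local, at 5563, while Hdc lay below it. There the markers went both ways, S100a8 at 4212 and 4932 against 2392, and Ngp at 228 and 88.3 against 380. Macrophage markers summed to 27508 in distal skin, against 36060 to 41556, with Adgre1 the 1 of 7 called lower. In distal skin all 7 macrophage markers and the 6 neutrophil markers that passed the filter lay below every outlet array, against 24.9% of genes. All these neutrophil markers but S100a8 were below the filter in distal skin. Of the 4 basophil markers, Mcpt8 and Il4 had a probe set of their own, and both were below the filter on all arrays, with a summed signal of 16 in distal skin, against 6 to 48. Skeletal muscle markers summed to 85910 in distal skin, against 59253 to 82246, with Myh4 called higher. Without Myh4 the distal sum was 69771, against 56837 to 81054, and Myh1 was lowest in distal skin. Adipocyte markers summed to 20529 in distal skin, against 15710 to 20231, with 0 called. The part of these cells in the mast cell values was not tested.

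Melanocytes also carry KIT, and 4 of 5 melanocyte markers with a probe set passed the filter. The summed signal of all 5 was 966 in TGF-beta mouse 1 and 5369 in TGF-beta mouse 2, against 575 in PBS local skin. Kit was highest in mouse 2 as well, at 338, but IL-13 skin, with 1320, had less Kit signal than PBS local skin. PBS distal skin, with a marker sum of 1058, had the lowest Kit signal, at 135. The part of melanocytes in the Kit signal was not tested.

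**Figure D4:**
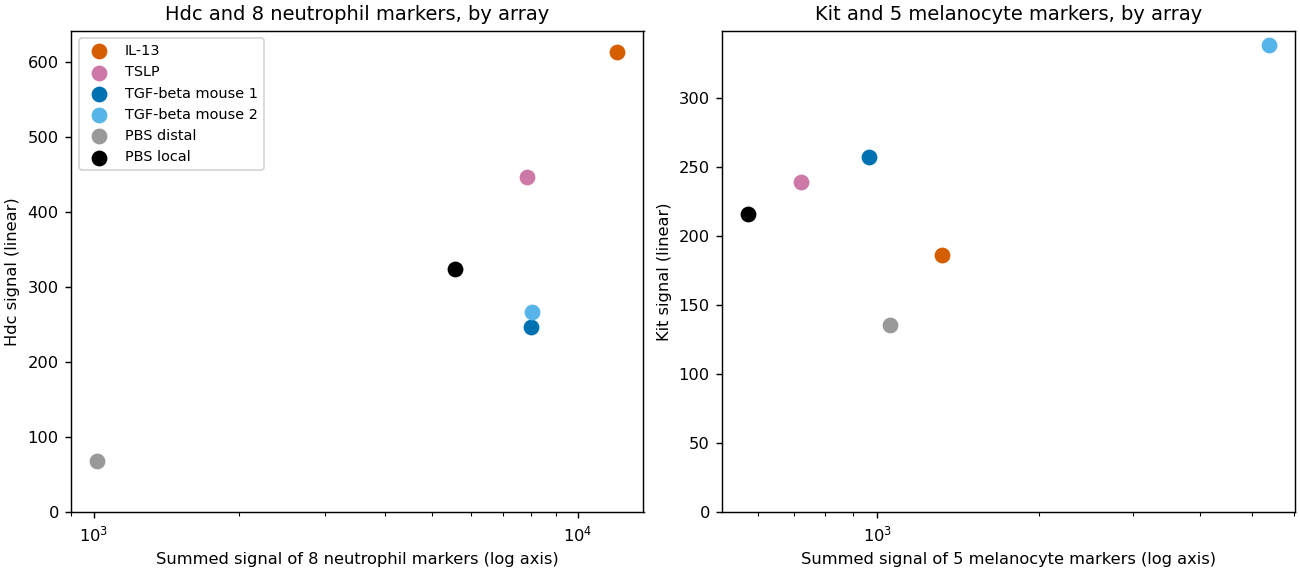
Left, Hdc signal against the summed signal of 8 neutrophil markers, and right, Kit signal against that of 5 melanocyte markers, 1 point per array, with a log x axis. PBS distal is lowest on both axes at left (67.2 and 1018), and TGF-beta mouse 2 is highest on both at right (338 and 5369). Other points part: at left the TGF-beta arrays have larger sums than PBS local (7984 and 8023 against 5563) but less Hdc. At right IL-13 has a larger sum than PBS local (1320 against 575) but less Kit (186 against 216).

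The wider mast cell pathway was described by 5 lists. The other granule proteases gave no comparison, since all 6 with a probe set (Mcpt1, Mcpt2, Mcpt8, Tpsab1, Tpsg1 and Ctsg) were below the filter on every array. Of the genes for KIT ligand, mast cell growth and transcription, 6 of 10 were tested, 6 were lower in PBS distal skin than on every outlet array (24.9% of all genes tested) and limma called 1 lower (2.68%). That gene was Tal1, a transcription factor of blood lineages, at -1.11 ± 0.21 (SE; adjusted p 0.0350). Tal1 had 110 in distal skin, below the filter, and was tested because the outlet arrays were higher. The count of 6 includes Tal1 and so supports nothing by itself. In that list Csf2rb, the shared beta chain of cytokine receptors, was at -1.05 (adjusted p 0.0984), Csf2rb2 at -0.91, Kitl, the ligand of KIT, at -0.46 and Mitf at -0.23. Of the 13 IgE receptor signalling genes 10 were tested and 0 called, with a median of -0.49. Fcer1g, the gamma chain that the IgE receptor shares with other Fc receptors, was at -0.52 (adjusted p 0.0640), Inpp5d at -0.62, the kinase gene Syk at -0.74 and Plcg2 at 0.29. Of the 10 granule matrix, amine and lipid mediator genes 6 were tested and 0 called, with Srgn, the granule proteoglycan serglycin, at -1.12 (adjusted p 0.0770), Alox5ap at -0.27, Ndst2 at -0.24 and Ltc4s at 0.21. Of the histamine receptors and breakdown enzymes only Hnmt passed the filter, at 0.02. All of these adjusted p-values are limma's, over the 7945 genes.

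Against PBS local, 0 genes of these lists were called under TGF-beta, with medians of -0.21 for the KIT ligand list, -0.22 for IgE receptor signalling and -0.26 for the granule matrix list. Under IL-13 the medians were 0.10, -0.01 and 0.12. The granule matrix median under IL-13 includes Ptgs2, which reached the filter only on that array and had to be higher there. Under TSLP they were 0.26, 0.21 and 0.22, and all 10 IgE receptor signalling genes had a positive difference, as had 48.7% of all genes tested. Only 8 genes of that list were tested for IL-13, so some of the 10 reached the filter only under TSLP and had to be higher. With 1 array a group, this count supports nothing by itself. The medians over all genes tested were -0.05, -0.07 and -0.01 for TGF-beta, IL-13 and TSLP.

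Among the 6 mast cell genes that passed the filter, Pearson's r over the 6 arrays between a gene and the mean of the other 5 was 0.975 for Fcer1a, 0.948 for Cma1, 0.901 for Cpa3, 0.883 for Hdc, 0.851 for Mcpt4 and 0.523 for Kit. The genes outside the 8 whose pattern was most like the mean of the 6 were Cd33 (r = 0.987), Slc39a14 (0.980), Slc4a1 (0.976), Akap2 (0.969) and Serpina3n (0.969), of 1209 genes that spanned at least 2-fold. Cd33 had 68.7 in PBS distal skin, against 198, 154, 149, 154 and 181 on the IL-13, TSLP, TGF-beta mouse 1, TGF-beta mouse 2 and PBS local arrays. These are descriptions over 6 arrays that share the low distal array.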

How the data were processed

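Biotin-labelled total RNA of 6 skin samples was hybridised to Affymetrix arrays, per the labels' protocols. The authors deposited 1 linear intensity for every probe set of an array. The submitters' processing notes name MAS5, with neither version nor genome build. The trimmed means of the arrays lay between 500.16 and 500.2 and array medians between 160.2 and 171.4, so the authors' values were already on a common scale. There were 0 unused per-sample columns, and detection calls were not used.

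Signals were rescaled so that the arrays share 1 trimmed mean (2% left out at each end), and values were taken as log2(signal + 27.4), the offset being the 25th percentile. Of 22690 probe sets 20380 name 1 gene, 691 several and 1555 none, beside 64 controls. Gene numbers matched 20351 of them to RefSeq symbols. The probe set with the highest mean stood for a gene. A gene was tested where 1 or more of the arrays compared reached 165. Tests used limma 3.58.1 (R 4.3.3; lmFit, eBayes with trend) over all genes tested, with Benjamini-Hochberg adjustment at 0.05, and were tested on simulated data. For distal against outlet skin the simulated outlet arrays held no treatment differences. The simulation therefore does not check a spread that holds several treatments. With 1 array a group, a size rule of 2-fold was used. From each further list, up to 4 passing genes with the highest mean were named, and any called gene beside them was named after its values were seen. The 5 other genes with the highest r to the mean of the passing mast cell genes were named too, among those spanning at least 2-fold. Members and lists were chosen with earlier results of these data known. Precision is limited by how few arrays there are. Alternatives covered scaling, offset, filter, probe sets, the variance prior, the control array and each replicate.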

Additional observations from a re-analysis of the deposited data

How the results depend on the processing

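Of 404 values for single mast cell genes under the alternatives, 18 lost a call and 14 changed sign, 10 of them with PBS distal as the control. All 18 lost calls were of Cma1, Hdc or Fcer1a in distal against outlet skin, where Cma1 passed in 3 of 13 alternatives (adjusted p 0.0376 to 0.0732), Hdc in 5 of 12 (0.0340 to 0.0709) and Fcer1a in 11 of 12 (0.0204 to 0.0647). With PBS distal in place of PBS local as the control, TGF-beta differences turned positive for Mcpt4 (0.55), Cma1 (1.21), Cpa3 (0.52), Hdc (1.59) and Fcer1a (1.51), limma called 4 genes, and 3 mast cell genes were at least 2-fold higher. With that control the sign also turned under IL-13 for Mcpt4 (0.80) and Kit (0.39), and under TSLP for Mcpt4 (0.58), Cma1 (0.98) and Cpa3 (0.47). IL-13 then gave 569 genes and 3 mast cell genes past 2-fold, against 116 and 0, and TSLP 492 and 2, against 110 and 0. Of these mast cell genes, Hdc and Fcer1a were below the filter in distal skin and were tested because the cytokine arrays were higher. After quantile normalization Mcpt4 in TGF-beta against TSLP turned to 0.04, and limma called 4 genes in TGF-beta against IL-13 and 4 in TGF-beta against TSLP. Leaving out 1 TGF-beta mouse turned 3 small differences, Fcer1a against PBS local (0.06), and Mcpt4 (0.09) and Cpa3 (-0.05) against TSLP. The causes were not tested.

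With no filter, the count past 2-fold under IL-13 was 176, and limma called 158 genes in distal against outlet skin, where more genes were tested. With every compared array above the filter, it was 65 under IL-13 and 175 for distal against PBS local skin (327 before), with 2 of 3 mast cell genes, and 1 of 3 for distal against outlet skin. Without the intensity trend limma called 207 genes there, of 312 before. Leaving out 1 outlet array gave 56 to 468 called genes and 3 mast cell genes at least 2-fold lower in every such fit. When limma borrowed its spread from the TGF-beta pair, it called 0 genes under IL-13 (smallest adjusted p 0.432, 292 at an unadjusted p under 0.05), 0 under TSLP (0.545, 304), and 2 in distal against PBS local skin, of which 0 were mast cell genes. No paired analysis was possible because only the TGF-beta group has replicate numbers.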

Other observations

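Further genes of the mast cell lists that differed in both TGF-beta mice from another array are given here, picked after their values were seen. Ptgs2, the inducible prostaglandin synthase, had signals of 73.4 and 70.4 in the TGF-beta mice and 226 under IL-13, with a difference of -1.35 and a limma adjusted p of 1. It had 165 under TSLP, 55.5 in PBS distal skin and 49 in PBS local skin. Ptgs2 reached the filter only under IL-13, so the order of the TGF-beta and PBS arrays is not readable. Lcp2, an adaptor downstream of the IgE receptor and of other immune receptors, had 300 and 260 in the TGF-beta mice and 647 under TSLP, with a difference of -1.13 and a limma adjusted p of 0.676. Lcp2 was at 556 under IL-13, 297 in PBS distal skin and 532 in PBS local skin. Ltc4s, which makes leukotriene C4, had 384 and 270 in the TGF-beta mice, against 552 in PBS local skin, with a difference of -0.73 and a limma adjusted p of 0.864. None of these differences passed limma's threshold.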
